A study of Mus musculus with 16 samples.

Results

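Phosphatidylcholine is the main phospholipid of liver membranes, of bile and of the lipoproteins that hepatocytes secrete. It is built from choline by the CDP-choline pathway, in which choline is phosphorylated, activated with CTP and joined to diacylglycerol, and in the liver it is also made by methylation of phosphatidylethanolamine. Its breakdown by removal of both acyl chains leaves glycerophosphocholine, from which a phosphodiesterase frees choline again.

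The genes described here are 8 genes of choline and phospholipid metabolism, Gpcpd1, Gde1, Chka, Pcyt1a, Pcyt2, Chpt1, Pemt and Lpcat3, out of 20284 named genes on the array. They were picked from a list by name, and Gpcpd1 was put on that list for its difference between the treatment groups, so that difference is given as a description with no test. The genes are read by 13 of the 55681 probes, matched through the RefSeq accession that the array design gives each probe. Chka and Pemt have 3 probes each, Chpt1 has 2, and the other 5 genes have 1. All 13 probes were well above background on all 16 arrays, so none was lost to the filter on dim probes.

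Liver RNA came from male ApoE KO mice, which lack apolipoprotein E and clear remnant lipoproteins poorly. All mice were given a high-fat diet, with a stated age of 8 weeks. Of the 16 samples, 8 came from mice treated with ctrl-inh and 8 from mice treated with miR-185-inh, a lentivirus that expresses an antisense RNA to the microRNA miR-185, and livers were taken after 8 weeks. The series was designed to find genes under miR-185 with a role in bile acid metabolism. Both groups lack ApoE and received the same diet, so neither shows wild-type liver or standard chow. The labels do not give the promoter of the inhibitor, the cells it reached, or the level of miR-185. The samples are called mice here by the number in their titles. The labels do not state that each came from a separate animal, so the spread on which the p-values rest may be only technical. Each group filled its own slide and its own scan, so slide and treatment cannot be told apart.

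Levels are log2 of the processed signal minus the 75th percentile of the same array, so 0 is the level of that percentile. Between 58.7% and 74.8% of spots were well above background per array, and arrays correlated pairwise at r = 0.983 to 0.996. The range was 68.6% to 74.8% in the first slide row of the ctrl-inh slide, 58.7% to 64.2% in its second row, and 60.7% to 67.1% on the miR-185-inh slide. In the limma fit across 35470 probes, 1507 (4.25%) passed an adjusted p of 0.05, of which 401 (1.13%) were higher and 1106 (3.12%) lower with miR-185-inh. The median difference over those probes was -0.033. All 10 hepatocyte markers were well above background on all arrays and none passed the test. Of these, 8 lay lower with miR-185-inh, and the median difference was -0.044. Their summed linear levels were 391 to 540 with ctrl-inh and 368 to 515 with miR-185-inh. All 12 neutrophil markers lay lower with miR-185-inh, with a median difference of -0.89, 2 of them past the threshold, and summed levels of 32.8 to 74.5 against 25.0 to 68.6. All 9 measured Kupffer cell and macrophage markers lay lower without passing, at a median of -0.15, with summed levels of 79.0 to 113 against 61.8 to 107. The pancreatic acinar markers had a median of -0.41 over 6 measured genes, with 1 called lower. Of the other lists, none of whose markers passed, the median was -0.28 for erythroid markers (4 of 4 measured lower), -0.084 for cholangiocyte, -0.061 for lymphocyte, 0.047 for sinusoidal endothelial and 0.11 for stellate cell markers (1 of 7 lower). Of the 12 neutrophil markers, 8 were well above background on all 16 arrays, as were all 9 Kupffer cell and macrophage markers. The other neutrophil markers were well above background on some arrays only. The part of these cell types in the members' values was not tested, and in whole tissue fewer cells of a type and less RNA per cell cannot be told apart.

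The promoters of Gde1, Chka and Chpt1 are printed because the 3 largest correlations in size among the miR-185-inh mice were between these genes. Taken by brightest probe, they were positive for Gde1 with Chpt1 and negative for Chka with either. Each is the 250 bases before the RefSeq gene start in GRCm38.p6, read 5′ to 3′ on the gene's strand, at chr7:118705739-118705988 (minus strand) for Gde1, chr19:3851523-3851772 (plus strand) for Chka and chr10:88503971-88504220 (minus strand) for Chpt1. Capitals mark matches to the letters of the CCAAT box, written CCAAT or, on the opposite strand, ATTGG. A match shows only that these letters are present.
Gde1: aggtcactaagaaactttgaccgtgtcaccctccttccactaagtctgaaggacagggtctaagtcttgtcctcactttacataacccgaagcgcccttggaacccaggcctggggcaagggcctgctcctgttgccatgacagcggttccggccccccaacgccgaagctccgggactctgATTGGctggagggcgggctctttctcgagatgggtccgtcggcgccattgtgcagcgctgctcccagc
Chka: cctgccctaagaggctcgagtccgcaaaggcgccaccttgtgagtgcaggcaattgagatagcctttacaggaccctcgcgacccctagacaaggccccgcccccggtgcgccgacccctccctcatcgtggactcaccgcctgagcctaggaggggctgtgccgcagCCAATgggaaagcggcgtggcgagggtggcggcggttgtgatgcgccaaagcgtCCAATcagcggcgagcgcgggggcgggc
Chpt1: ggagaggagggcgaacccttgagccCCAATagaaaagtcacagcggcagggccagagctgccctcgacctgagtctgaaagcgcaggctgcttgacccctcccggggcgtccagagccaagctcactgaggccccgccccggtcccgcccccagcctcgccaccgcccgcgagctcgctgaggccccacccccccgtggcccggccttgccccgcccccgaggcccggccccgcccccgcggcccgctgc

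Of the 8 genes, 6 had entries in the RefSeq promoter table, in 9 windows, and Gpcpd1 and Pcyt2 had none. A CCAAT match was found in 33.85% of the 32851 windows of the same length. Gde1 held 1, starting 68 bases before the gene start, Chka held 2, Chpt1 held 1 at 225 bases and Lpcat3 held 3. Pemt held 1 in the second of its windows and Pcyt1a held none. The FoxO core GTAAACA was searched on both strands because the series concerns FoxO1, a forkhead factor of hepatic metabolism, and it was in 3.166% of all windows. The E-box CACGTG, which reads the same on both strands and is in 6.021% of windows, and the DR4 element, AGGTCA repeated after a spacer of 4 bases (NNNN), in 0.015%, were searched likewise. None of these 3 motifs was in a window of the 6 genes, which says only that these letters are not in those 250 bases.

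Gpcpd1 encodes the phosphodiesterase that splits glycerophosphocholine into choline and glycerol 3-phosphate, and probe A_55_P1976351 reads it. Its level with ctrl-inh was -2.55, -3.19, -2.10, -3.21, -3.17, -2.76, -3.24 and -2.51 in mice 1, 2, 3, 4, 8, 9, 11 and 12. With miR-185-inh it was -1.57, -2.02, -0.20, -2.44, -1.29, -1.45, -2.24 and -2.00 in mice 1, 3, 6, 7, 8, 9, 10 and 12. All 8 miR-185-inh mice were above the ctrl-inh mean and 6 of 8 were above every ctrl-inh mouse, while mice 7 and 10 overlapped with the ctrl-inh mice. The group means were -2.84 ± 0.43 and -1.65 ± 0.71 (SD, n = 8 each), a difference of 1.19 (SE 0.27), or 2.28-fold. Mouse 6 was highest, and the difference was 0.98 without it. It was 1.21 within the first slide row and 1.17 within the second. Ordered by rise alone, with falls not ranked, Gpcpd1 stood at 2 of 15247 named genes measured, between Vmn1r51 at 1.20 and Cyp2g1 at 1.18. The within-group SD of Gpcpd1 was above that of 95.7% of probes.

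**Figure D1:**
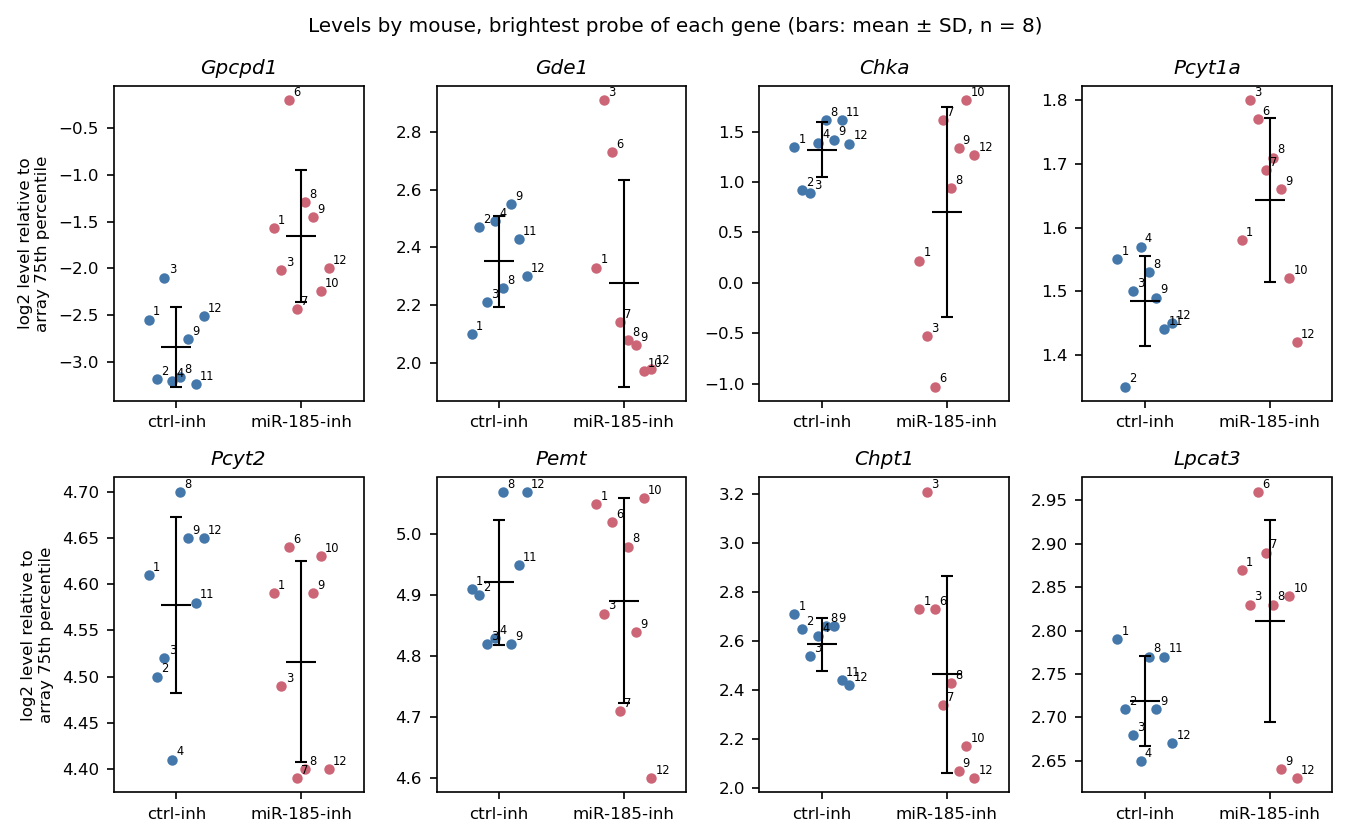
Level of each gene's brightest probe (log2, relative to the array's 75th percentile) by treatment group, 1 numbered point per mouse, with bars for the mean ± SD of 8 mice. For Gpcpd1 all 8 miR-185-inh points lie above the ctrl-inh mean, and for Chka miR-185-inh mice 1, 3 and 6 lie below every ctrl-inh point.

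None of the 12 probes of the other 7 genes passed the limma test, beside 4.25% of all probes that did, and 1 had an unadjusted p under 0.05, beside 19.6% of all probes. By brightest probe, 2 of the 7 genes lay above zero and 5 below, and the median difference was -0.061, beside -0.013 for named genes as a whole. Each test is two-sided, with limma p-values adjusted over all 35470 probes and exact permutation p-values over the assignments of 16 mice to groups of 8.

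Gde1, the other phosphodiesterase among the 8, hydrolyses glycerophosphoinositol and related glycerophosphodiesters. Its level by probe A_51_P294515 ran from 2.10 to 2.55 with a median of 2.36 with ctrl-inh, and from 1.97 to 2.91 with a median of 2.11 with miR-185-inh. Mice 3 and 6 were the highest of the miR-185-inh group at 2.91 and 2.73, mice 8, 9, 10 and 12 the lowest, and the groups overlapped. The difference was -0.073 (SE 0.13, 95% interval -0.35 to 0.20, limma adjusted p = 0.812, exact permutation p = 0.601). It was 0.21 within the first slide row and -0.36 within the second, a gap of -0.57 that did not pass as an interaction (limma adjusted p = 0.224).

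Chka encodes choline kinase alpha, which phosphorylates choline at the entry to the CDP-choline pathway, and it varied more between miR-185-inh mice than any other of the 8 genes. Its brightest probe, A_51_P142923, read 1.35, 0.92, 0.89, 1.39, 1.61, 1.42, 1.61 and 1.38 in ctrl-inh mice 1, 2, 3, 4, 8, 9, 11 and 12. It read 0.22, -0.53, -1.03, 1.61, 0.94, 1.34, 1.81 and 1.27 in miR-185-inh mice 1, 3, 6, 7, 8, 9, 10 and 12. Mice 1, 3 and 6 were below every ctrl-inh mouse, and the other 5 overlapped with the ctrl-inh range or lay above it. The difference of the means, 1.32 ± 0.28 and 0.70 ± 1.04 (SD, n = 8 each), was -0.62 (SE 0.35, 95% interval -1.35 to 0.12, limma adjusted p = 0.350, exact permutation p = 0.144).

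The other probes of Chka put the same 3 mice lowest, and the deviations of the 3 probes from their group means correlated at r = 0.969 to 0.984 over the 16 mice. Their differences were -0.31 (SE 0.32, limma adjusted p = 0.642) and -0.54 (SE 0.30, limma adjusted p = 0.346). The SD of the brightest probe was 3.78 times as large with miR-185-inh as with ctrl-inh, a ratio above that of 99.1% of probes. The ratios of the other probes were 2.69 and 2.43, above those of 96.2% and 94.3% of probes. Without mice 3 and 6 the differences of the 3 probes were -0.12, 0.13 and -0.11, and none passed. Over the levels of all probes, mice 3 and 6 had median correlations to their own group of 0.989 and 0.990, in a range of 0.988 to 0.991. Such an r is set mostly by differences between probes, so it cannot show whether these mice stood apart. Over all probes, 1967 passed the limma test without mouse 3, 894 without mouse 6 and 1534 without both, beside 1507 with all mice. The 3 low mice all sat in the first slide row, where the difference was -1.07, against -0.17 in the second. Within the miR-185-inh slide the second row minus the first was 1.27, 1.18 and 1.18 for the 3 probes (limma adjusted p = 0.424, 0.421 and 0.417), and within the ctrl-inh slide 0.37, 0.52 and 0.33 (limma adjusted p = 0.150, 0.0840 and 0.350). The part of slide position in the low Chka values was not tested beyond these contrasts.

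Pcyt1a and Pcyt2 encode the enzymes that activate phosphocholine and phosphoethanolamine with CTP, and the Pcyt1a enzyme sets the pace of the CDP-choline pathway. Pcyt1a had the lowest p-value of the 7 genes. Its level by probe A_55_P2165719 ran from 1.35 to 1.57 with a median of 1.49 with ctrl-inh, and from 1.42 to 1.80 with a median of 1.67 with miR-185-inh. Of the miR-185-inh mice, 7 of 8 were above the ctrl-inh mean and 6 above every ctrl-inh mouse, with mice 3 and 6 highest and mouse 12 lowest. The means were 1.48 ± 0.071 and 1.64 ± 0.13 (SD, n = 8 each), a difference of 0.16 (SE 0.062, 1.12-fold) that did not pass after adjustment (limma adjusted p = 0.158), with an exact permutation p of 0.00948 for this gene alone. After normexp background correction the difference was 0.057. Pcyt2 (probe A_55_P2112230) ran from 4.41 to 4.70 with a median of 4.59 with ctrl-inh, and from 4.39 to 4.64 with a median of 4.54 with miR-185-inh. The groups overlapped over most of their ranges. Its difference was -0.061 (SE 0.062, 95% interval -0.19 to 0.070, limma adjusted p = 0.635, exact permutation p = 0.248).

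Chpt1 encodes the cholinephosphotransferase that joins CDP-choline to diacylglycerol in the last step of the pathway. Its brighter probe, A_52_P655803, ran from 2.42 to 2.71 with a median of 2.63 with ctrl-inh, and from 2.04 to 3.21 with a median of 2.38 with miR-185-inh. Mouse 3 was highest at 3.21, mice 9 and 12 were lowest at 2.07 and 2.04, and the miR-185-inh values lay on both sides of the ctrl-inh range. The SD of this probe was 3.73 times as large with miR-185-inh, a ratio above that of 99.0% of probes. For the dimmer probe, A_52_P78770, the ratio was 1.05, above that of 42.0% of probes. The SDs of the brighter and dimmer probe were 0.40 and 0.35 with miR-185-inh, and 0.11 and 0.34 with ctrl-inh. The ctrl-inh SD of the dimmer probe includes mouse 12 at -1.21, with the nearest ctrl-inh mouse at -0.50. The difference of the brighter probe was -0.12 (SE 0.14, limma adjusted p = 0.685, exact permutation p = 0.434). It was 0.12 in the first slide row and -0.37 in the second (interaction -0.49, limma adjusted p = 0.310). The dimmer probe differed by 0.19 (SE 0.16, limma adjusted p = 0.551), the opposite sign, and its deviations correlated with those of the brighter probe at r = 0.629. Without mice 3 and 6 the brighter probe differed by -0.29 (limma adjusted p = 0.123), the dimmer by 0.049, and Gde1 by -0.25 (limma adjusted p = 0.104).

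Pemt encodes the hepatic methyltransferase that turns phosphatidylethanolamine into phosphatidylcholine. Its brightest probe, A_55_P1970860, ran from 4.82 to 5.07 with a median of 4.90 with ctrl-inh, and from 4.60 to 5.06 with a median of 4.93 with miR-185-inh. The groups overlapped, and only mice 7 and 12 of the miR-185-inh group lay below the ctrl-inh range. The difference was -0.028 (SE 0.075, 95% interval -0.19 to 0.13, limma adjusted p = 0.880, exact permutation p = 0.699), and the other probes gave -0.15 (limma adjusted p = 0.373) and -0.0061 (limma adjusted p = 0.977). Lpcat3 (probe A_51_P145415) encodes the acyltransferase that puts polyunsaturated chains back on lysophosphatidylcholine. It was the steadiest of the 8 genes, with a within-group SD above that of 2.44% of probes, and ran from 2.65 to 2.79 (median 2.71) with ctrl-inh and from 2.63 to 2.96 (median 2.83) with miR-185-inh. Of the miR-185-inh mice 6 were above every ctrl-inh mouse and mice 9 and 12 below every one. The difference was 0.094 (SE 0.058, 95% interval -0.029 to 0.22, limma adjusted p = 0.399, exact permutation p = 0.0597), with 0.18 in the first slide row and 0.0056 in the second.

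**Figure D2:**
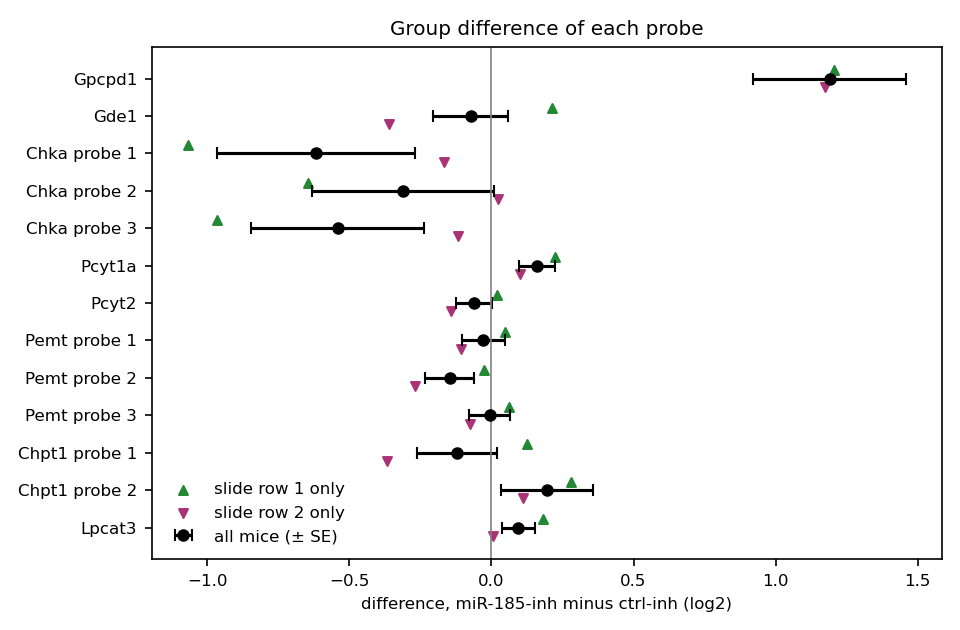
Difference between miR-185-inh and ctrl-inh means (log2) for each of the 13 probes, with ± SE over all mice as bars and the differences within slide rows 1 and 2 as triangles. Gpcpd1 at 1.19 was chosen for this value, the other 12 probes lie between -0.62 and 0.19, and the Chka probes show the widest gap between rows.

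All 8 genes had a larger SD with miR-185-inh than with ctrl-inh by brightest probe, as had 62.2% of all probes, whose median ratio was 1.15. The row tests called none of the 13 probes in either group or as an interaction. Beside these, row called 3.21% of all probes within ctrl-inh, 0% within miR-185-inh (3964 had an unadjusted p under 0.05) and 0.124% as an interaction. Unadjusted p-values under 0.05 were found for 2, 6 and 2 of the 13 probes, against 24.6%, 11.2% and 13.6% of all probes. The 6 within miR-185-inh were the 3 probes of Chka, Gde1 and both probes of Chpt1.

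Correlations within each group do not use the contrast that chose Gpcpd1. Of the 14 relations of Gpcpd1 with the other 7 genes, none passed after adjustment and none had an unadjusted exact permutation p under 0.05. The strongest was with Chka among miR-185-inh mice, at Pearson r = -0.67 (exact permutation p = 0.0630, adjusted 0.659) and Spearman rho = -0.62 (exact permutation p = 0.115, adjusted 0.798). The r was -0.078 without mice 6 and 7, which lay farthest from the median Gpcpd1 level. Leaving them out also narrows the range of Gpcpd1, so this cannot show how far the relation rests on them. Among ctrl-inh mice r was -0.46 (exact permutation p = 0.260, adjusted 0.659) with rho = -0.62 (exact permutation p = 0.115, adjusted 0.798), and r was -0.035 without mice 3 and 12.

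**Figure D3:**
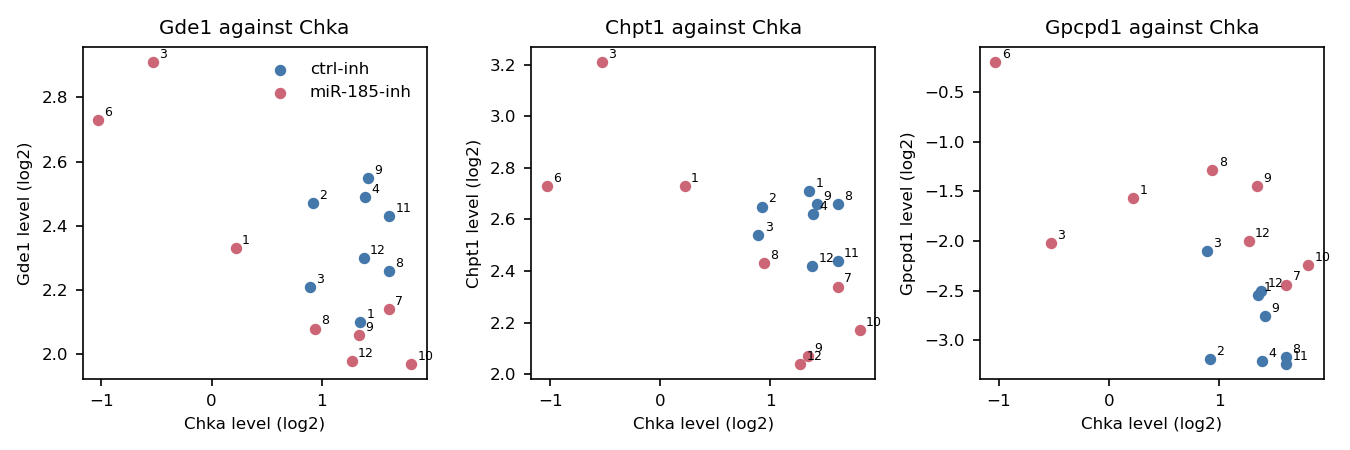
Levels of Gde1, Chpt1 and Gpcpd1 against that of Chka (all log2, relative to the array's 75th percentile, brightest probe), 1 numbered point per mouse, coloured by treatment group. In the miR-185-inh group, low-Chka mice 3 and 6 have high Gde1, while low-Chka mouse 1, at a Gde1 level of 2.33, lies within the ctrl-inh range. Mouse 6 of the miR-185-inh group has the highest Gpcpd1 at -0.20 and the lowest Chka at -1.03.

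Among the 28 pairs of the 8 genes in each group, 56 relations in all, 1 passed after adjustment. Gde1 and Chpt1 went together among the miR-185-inh mice, at r = 0.92 (exact permutation p = 0.000719, adjusted 0.0403). By rank the same pair gave rho = 0.90 (exact permutation p = 0.00456, adjusted 0.244), which did not pass, and r was 0.90 without mice 3 and 6. Among ctrl-inh mice r for this pair was -0.054. All correlations with Chpt1 here were taken with its brighter probe and stand for that probe alone. The deviations of its dimmer probe correlated with those of the brighter at r = 0.629. The dimmer probe read -0.41, 0.27, 0.13, -0.09, -0.23, -0.35, -0.87 and -0.35 in miR-185-inh mice 1, 3, 6, 7, 8, 9, 10 and 12. Its correlations with Gde1 and Chka were not tested. Chka went against Gde1 among miR-185-inh mice at r = -0.92 (exact permutation p = 0.00397, adjusted 0.111) and rho = -0.81 (exact permutation p = 0.0218, adjusted 0.244). It went against Chpt1 at r = -0.83 (exact permutation p = 0.0101, adjusted 0.188) and rho = -0.76 (exact permutation p = 0.0368, adjusted 0.343). Neither passed after adjustment. The r values without mice 3 and 6 were -0.79 and -0.77, and among ctrl-inh mice 0.082 and -0.11. The difference in r between the groups was not tested. Gde1, Chka and Chpt1 are the 3 genes whose values also differed most between slide rows of the miR-185-inh slide, and the part of row in these correlations was not tested.

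Across 15154 named genes, the 5 whose deviations from the group means were most like those of Gpcpd1 over the 16 mice were Slc6a4 (r = 0.78), Atl2 (0.78), Dkk4 (0.77), Lnx1 (0.74) and Xrn2 (0.74). The 3 most opposed were Tprn (-0.82), Myo1e (-0.80) and N4bp3 (-0.77). The mice share slides and scans, and these are the extremes of many correlations, so they are a description. By the same measure Chka stood at -0.61, with 0.297% of genes lower, and the other 6 genes ran from 0.17 for Chpt1 to 0.36 for Pcyt1a. Tested within each group, the relation of Chka with Gpcpd1 did not pass (exact permutation, adjusted p = 0.659 in both).

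The wider pathway was read from 75 further genes in 9 lists, of which 67 had a probe past the filter. Of the 87 probes kept, 1 passed the limma test, which is 1.15% beside 4.25% of all probes. An unadjusted p under 0.05 was found for 8 of the 87, beside 19.6% of all probes. By brightest probe 30 genes lay above zero and 37 below, with a median of -0.028. The probe that passed reads Cept1, whose enzyme makes both phosphatidylcholine and phosphatidylethanolamine from the CDP forms and so shares a step with Chpt1. Cept1 was 3.09, 3.02, 2.94, 3.01, 3.08, 3.07, 3.22 and 2.85 in ctrl-inh mice 1, 2, 3, 4, 8, 9, 11 and 12. The miR-185-inh mice 1, 3, 6, 7, 8, 9, 10 and 12 read 3.20, 3.26, 3.26, 3.35, 3.26, 3.40, 3.32 and 3.33. Only miR-185-inh mouse 1, at 3.20, was below the highest ctrl-inh mouse, number 11 at 3.22.

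Cept1 rose by 0.26 (SE 0.058, 1.20-fold), from 3.03 ± 0.11 to 3.30 ± 0.065 (SD, n = 8 each), with a limma adjusted p of 0.0183 and an exact permutation p of 0.000311. The permutation p is unadjusted and rests on the same values that singled out Cept1, so it is no separate support. The difference was 0.25 in the first slide row and 0.28 in the second. With quantile normalization it was 0.26 and no longer passed (limma adjusted p = 0.0533), and with 4 mice a group, within a row, it did not pass either (limma adjusted p = 0.167 and 0.175).

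None of the other genes of the CDP pathways passed, 9 in all with Cept1, and the list had a median of -0.050. Selenoi, the ethanolaminephosphotransferase, differed by -0.21 (limma adjusted p = 0.224). In choline uptake 5 of 8 genes were measured, and the transporter gene Flvcr1 differed by -0.19 (limma adjusted p = 0.0935) and Slc44a3 by 0.19 (limma adjusted p = 0.303). In choline oxidation and methyl donor supply 6 of 10 genes lay above zero by brightest probe. Chdh, choline dehydrogenase, lay below at -0.018 by its brightest probe, while its other probes gave 0.15 (limma adjusted p = 0.327) and 0.0096. In the list of other glycerophosphodiesterases and lysophospholipases 10 of 13 genes were measured, 4 above zero and 6 below. The 4 include Etnppl at 0.18, whose enzyme is of neither class. In the same list, Gdpd3, a lysophospholipase D, differed by -0.38 (limma adjusted p = 0.0898) and Pnpla6 by -0.21 (limma adjusted p = 0.230).

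The phospholipase list, with 6 genes above zero and 4 below, had Pla2g12a at 0.26 (limma adjusted p = 0.406) and Pld2 at 0.12 (limma adjusted p = 0.402). Among acyl chain remodelling genes, to which Lpcat3 belongs, Mboat1 differed by -0.35 (limma adjusted p = 0.184) and Lpgat1 by -0.079 with its brightest probe. The other Lpgat1 probes gave 0.26 (limma adjusted p = 0.217) and -0.18. The 3 genes of phosphatidylserine synthesis and decarboxylation all lay below zero by brightest probe, with Pisd at -0.063 (limma adjusted p = 0.537), while the 3 probes of Ptdss1 gave -0.11 (brightest), -0.13 and 0.20 (limma adjusted p = 0.237 for the last). For transfer and secretion the median was -0.015, with Stard7 at 0.11 (limma adjusted p = 0.419) and Mttp, which loads lipid onto lipoproteins, at 0.10 (limma adjusted p = 0.336). Of the 4 sphingomyelin genes, Sgms1, a sphingomyelin synthase that takes its headgroup from phosphatidylcholine, stood at 0.19 (limma adjusted p = 0.413). None of these genes passed.

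**Figure D4:**
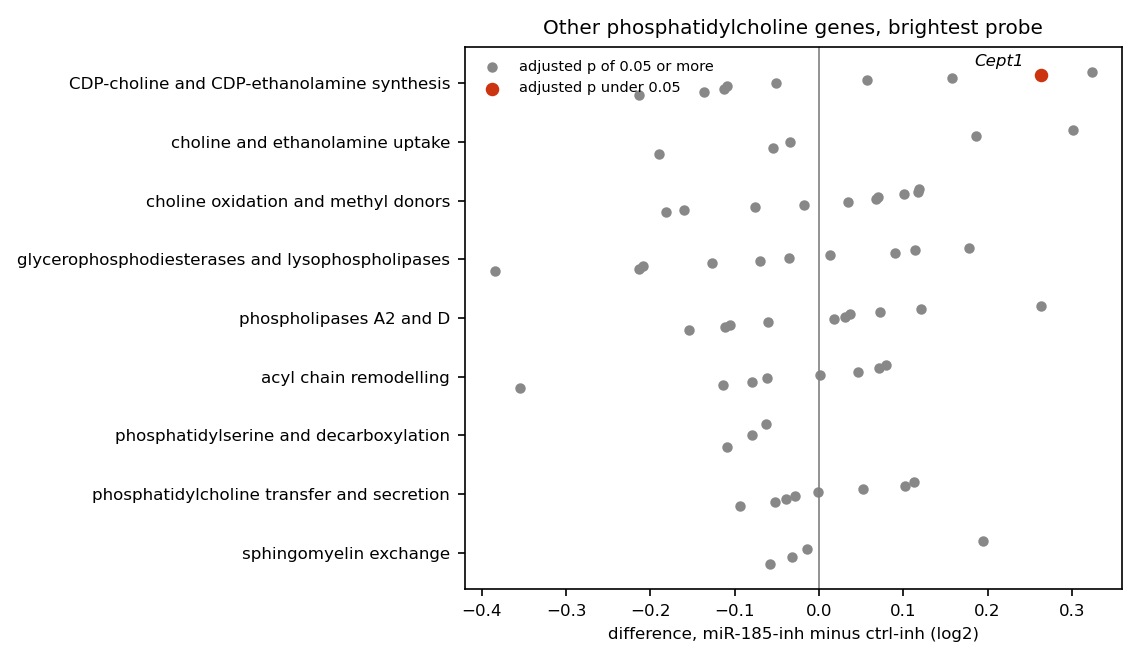
Difference between miR-185-inh and ctrl-inh means (log2) for the brightest probe of 67 phosphatidylcholine pathway genes outside the 8, with 1 point per gene in 9 lists. Cept1 at 0.26 is the point past an adjusted p of 0.05, and 30 genes lie above zero and 37 below.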

How the data were processed

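Liver RNA, 0.5 µg per sample per the labels, was labelled with Cy3 and hybridised to 16 1-colour Agilent mouse arrays. The deposited scanner files hold the processed signal, an intensity already corrected for background by Agilent Feature Extraction, version 11.5.1.1 per the file headers and 9.1 per the submitters' processing notes. The authors' deposited value table holds log2 of the same intensity minus 1 constant per array, and the sources used here do not say what the constant is. Column medians of that table lie between -1.30 and -1.22.

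Control spots and outlier spots were left out, spots of a probe averaged, and each array's 75th percentile subtracted from log2. Probes well above background on at least 8 of 16 arrays were kept (35470 of 55681). Of the probes, 26762 matched a RefSeq symbol by accession. Groups were compared per probe with limma 3.58.1 in R 4.3.3 (lmFit, eBayes, Benjamini-Hochberg over all probes kept), without covariates. The procedure was tested on simulated data. The simulated noise was independent between probes and arrays, with no slide or row effect, so that test does not cover such effects. The number of arrays limits the precision.

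All probes of the 8 genes are named. Where 1 value per gene was needed, the probe brightest over all arrays was used. Of the pathway lists, genes past the threshold and up to 2 per list with the smallest p were eligible. The genes most like Gpcpd1 are the 5 with the highest and the 3 with the lowest r. The members and lists were chosen with earlier results of these data known.

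Of the sample numbers, 5 occur in both groups. Deviations of same-numbered samples correlated over 0.1 in 2 of 5 pairs. Same-numbered samples also sat in the same slide row, so this check cannot decide whether the numbers pair the mice. The labels do not state a pairing, and the groups were treated as unpaired. Alternatives covered the background correction (normexp with offset 50, on the median spot signal), the normalization, the filter, the summary per gene, the slide position, the authors' table, a replicate block, and leaving out each mouse. Leaving out miR-185-inh mice 3 and 6 together was chosen after seeing the data.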

Additional observations from a re-analysis of the deposited data

Results flagged for a closer look

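The dimmer Chpt1 probe (A_52_P78770) in ctrl-inh mouse 12 read -1.21, far from the nearest ctrl-inh mouse at -0.50, a gap that made up 0.686 of the group's range. Chance sets about 1 in 20 groups apart in this way, and here it was 1 of 26. The brighter Chpt1 probe in that mouse read 2.42, close to the next ctrl-inh mouse at 2.44.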

How the results depend on the processing

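None of the probes of the 7 genes other than Gpcpd1 passed under any of the 31 alternatives run (362 values, lowest limma adjusted p 0.0772, for Pcyt1a without miR-185-inh replicate 12), and the counts for slide row and for the 14 correlations with Gpcpd1 stayed at 0 under the 4 alternatives run for them. The Gpcpd1 difference was above zero in all of them, from 0.95 with the replicate block to 1.30 without miR-185-inh replicate 7.

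Of all probes, 1507 passed. The count was 896 with quantile normalization and 2285 with the percentile of the detected probes. The count was 0 in the first slide row alone (6052 at an unadjusted p under 0.05) and 339 in the second, each with fewer mice. The replicate block over the 5 shared numbers, which keeps 10 of 16 mice, gave 0 (3500 unadjusted). Leaving out 1 mouse gave 845 to 1967, with the lowest counts without ctrl-inh mice 12 (845), 11 (892) and 2 (996) and miR-185-inh mice 7 (849) and 6 (894). The share of called probes that were higher was 26.6%, against 48.1% with normexp, 48.5% with quantile normalization and 16.6% with the percentile over detected probes.

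The pathway count was 1 when each mouse was left out, and 0 with quantile normalization (11 unadjusted), in the first (16) or second slide row (13) and with the replicate block (2). Over all probes kept, the unadjusted counts in these settings, in the same order, were 6697, 6052, 7052 and 3500. Cept1 gave 0.29 with the replicate block (limma adjusted p = 0.446) and stayed above zero in all 31 alternatives, passing in 27. Its adjusted p was 0.00569 to 0.446. The cause of these changes was not tested.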
